A study of Bos taurus with 12 samples.

Results

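The SOX transcription factors described here were SOX4, SOX5, SOX6, SOX8, SOX9, SOX11 and SOX12, 7 of the 18436 genes in the deposited expression table. They were taken by gene name, with the m6A peaks annotated to them, which were 15 of 19739 peaks in myoblasts and 13 of 20790 in myotubes. The table held 12 SOX genes in all. The 7 were picked with their expression in these samples already known. Which values decided the choice is not recorded, so each difference in SOX mRNA below is a description without a test. Primary myoblasts came from the longissimus dorsi muscle of newborn Qinchuan cattle, and according to the study's methods from a single animal. GM samples were myoblasts in growth medium with 20% fetal bovine serum at 80% confluence, before any differentiation medium (day 0). DM samples were myotubes at 100% confluence after 4 days in differentiation medium with 2% horse serum. Both media held penicillin and streptomycin. There were 3 cultures per group. An input RNA library and a library immunoprecipitated (IP) with an m6A antibody were made from each, 12 samples in all.

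SOX proteins bind and bend DNA through an HMG box, and subgroups are defined by how similar this box is. SOX4, SOX11 and SOX12 form the SOXC subgroup of activators found in progenitor cells and in the developing nervous system. SOX5 and SOX6 belong with SOX13 to the SOXD subgroup, which lacks an activation domain of its own. SOX6 is known in muscle for repressing slow-fibre genes. SOX8 and SOX9 belong to the SOXE subgroup with SOX10. SOX9 directs cartilage formation together with SOX5 and SOX6, and SOX8 is known as a marker of satellite cells, the stem cells of muscle. The m6A mark is a methyl group on adenosine in RNA that affects splicing, stability and translation, and is often found near stop codons and in 3′UTRs.

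Expression is given as FPKM, a fragment density scaled by transcript length and library size that allows levels to be set side by side between genes. The table gave no read counts, so depth behind a value is unknown and precision rests on the spread of 3 input libraries per group. Summed FPKM ran from 415740 to 434458 in GM and from 386436 to 390827 in DM, and 16016 to 16289 genes were above 0 in each library. In bulk RNA, fewer cells of a type and less RNA per cell cannot be told apart. Myogenic cells were present in both groups. Of 13 myogenic markers, all were tested, 4 were called higher in DM and 4 lower, beside 4.9% and 6.97% of all tested genes. CKM, muscle creatine kinase, went from 10.2 ± 1.41 to 42.5 ± 2.55 FPKM (SD, n = 3 here and below), and MYH8, the perinatal myosin heavy chain, from 0.520 ± 0.105 to 4.06 ± 0.0544. MYF5, a factor of undifferentiated myoblasts, went from 11.8 ± 0.935 to 2.25 ± 0.261, and MYOD1, the myogenic determination factor, from 61.6 ± 3.94 to 24.8 ± 1.17.

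SOX8 and SOX12 were lower in DM, and SOX11 was higher, each by more than 1.5-fold. SOX11, a SOXC factor of embryonic progenitors, had the highest mean of the 7 in both groups. SOX4 and SOX6 were higher and SOX5 and SOX9 lower in DM by smaller steps. The fit across all genes used log2(FPKM + 1), and a call needed more than 1.5-fold together with p under 0.05 before adjustment. By that rule 3 of the 7 SOX genes were called, where 11.9% of 12302 tested genes were. In the direction of a rise it was 1 of 7 beside 4.9% of tested genes, and in the direction of a fall 2 of 7 beside 6.97%. The 3 libraries of GM and the 3 of DM did not overlap for any of the 7, while 54.1% of tested genes had groups that did not overlap. Because the 7 were chosen with such values in view, nothing is read from these counts. Their median log2 change was -0.24, and that of all tested genes was -0.05.

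**Figure D1:**
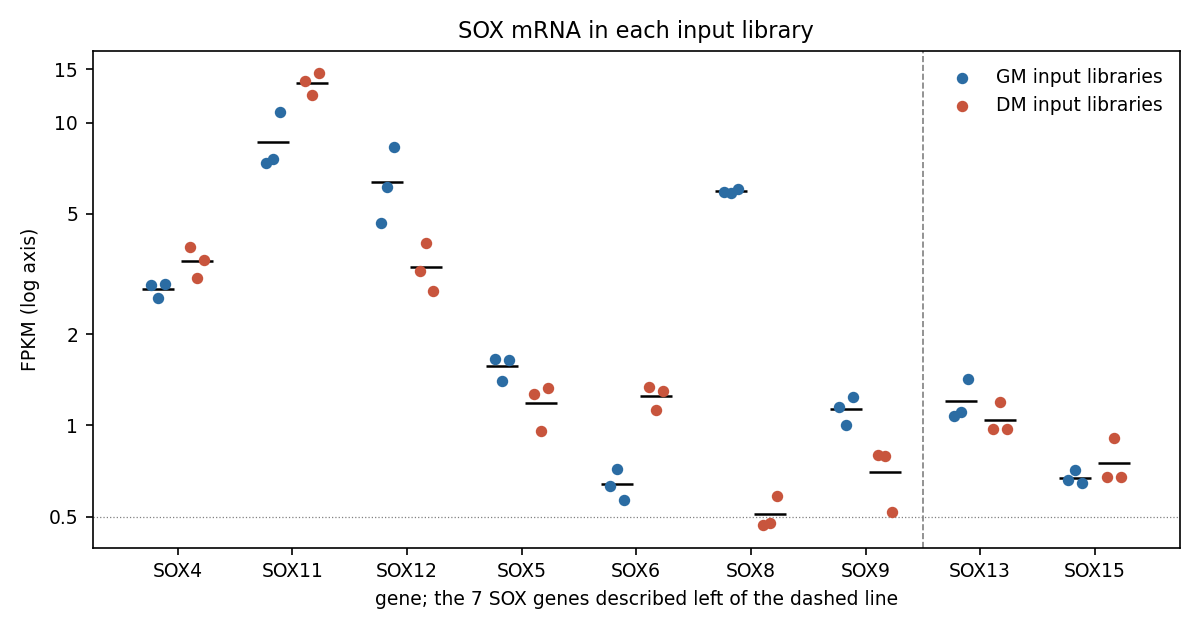
FPKM (log axis) of the 7 SOX genes and, right of the dashed line, of SOX13 and SOX15, in the 3 GM (blue) and 3 DM (red) input libraries. Black bars are group means and the dotted line is the filter at a mean of 0.5 FPKM. GM and DM points do not overlap for the 7 genes, and SOX8 shows the widest gap, from 5.94 to 0.509 FPKM on average.

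Among the SOXC genes, SOX11 (ENSBTAG00000050114, chr11:90953818-90955173 of ARS-UCD1.2, minus strand) measured 7.36, 7.59 and 10.9 FPKM in GM and 13.7, 12.4 and 14.6 in DM. All DM libraries stood above all GM libraries, and GM replicate 3 lay nearest to them. The means were 8.61 ± 1.96 and 13.5 ± 1.09 FPKM, a ratio of 1.57, and the log2 change of FPKM + 1 was 0.62 ± 0.13 (SE). This size is close to the 1.5-fold limit, and the call was lost without GM replicate 1 (0.52), without GM replicate 2 (0.54) or without DM replicate 3 (0.57).

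SOX12 (ENSBTAG00000027386, chr13:60693347-60694291, minus strand), the SOXC factor with the weakest activation in reporter assays, went the other way. It measured 4.67, 6.12 and 8.33 FPKM in GM and 3.25, 4.01 and 2.77 in DM. The GM libraries were spread widely, and the lowest of them still lay above the highest DM library. The means were 6.37 ± 1.84 and 3.34 ± 0.626 FPKM, 1.91 times higher in GM, with a log2 change of -0.74 ± 0.18. Without GM replicate 3 the log2 change was -0.56 and the gene was not called. SOX11 and SOX12 are both annotated as single exons whose lengths, 1356 and 945 nucleotides, are multiples of 3.

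SOX4 (ENSBTAG00000051245, chr23:36520669-36522538, minus strand), a SOXC factor studied in progenitors of many tissues, had the smallest change of its subgroup. Its values were 2.90, 2.64 and 2.93 FPKM in GM and 3.89, 3.07 and 3.51 in DM. DM replicate 2 was only just above the GM libraries. The means were 2.83 ± 0.159 and 3.49 ± 0.409 FPKM, and the log2 change of 0.23 ± 0.084 did not reach 1.5-fold. The ratio of SOX11 to SOX12 was 1.58, 1.24 and 1.30 in the GM libraries and 4.23, 3.09 and 5.25 in the DM libraries, so the values of the 2 groups were apart. The ratio of SOX11 to SOX4 was 3.04 ± 0.602 in GM and 3.90 ± 0.329 in DM.

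Of the SOXD genes, SOX5 and SOX6 moved in opposite directions. SOX6 (ENSBTAG00000044185, chr15:35833980-36542301, plus strand, 5 transcripts) measured 0.631, 0.717 and 0.567 FPKM in GM and 1.34, 1.12 and 1.29 in DM. Every DM library was well above every GM library. The ratio of the means, 0.638 ± 0.0750 and 1.25 ± 0.112 FPKM, was 1.96. On the log2(FPKM + 1) scale, where a pseudocount of 1 compresses low values, the change was 0.46 ± 0.081 and not called. With a pseudocount of 0.1 it was 0.87 and called.

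SOX5 (ENSBTAG00000022360, chr5:86028631-86627007, plus strand, 5 transcripts) measured 1.66, 1.40 and 1.65 FPKM in GM and 1.27, 0.961 and 1.32 in DM. The lowest GM library and the highest DM library were close together. The means were 1.57 ± 0.143 and 1.18 ± 0.196 FPKM, with a log2 change of -0.24 ± 0.093. The locus overlaps another gene model on the same strand, ENSBTAG00000004109, with a mean of 1.30 FPKM over the 6 inputs, so the level of SOX5 is uncertain to the extent that their reads were shared.

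SOX8 (ENSBTAG00000020737, chr25:788526-793121, plus strand) had the largest change of the 7 genes. It measured 5.90, 5.85 and 6.06 FPKM in GM and 0.468, 0.476 and 0.583 in DM. The libraries of each group were tightly grouped and far from those of the other. The means were 5.94 ± 0.108 and 0.509 ± 0.0646 FPKM, 11.7 times higher in GM, and the log2 change of FPKM + 1 was -2.20 ± 0.068. A lower log2 change was found for 39 of the 12302 tested genes. Across the alternative settings, SOX8 was called in 16 of 16.

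SOX9 (ENSBTAG00000045824, chr19:58919579-58923174, minus strand, 2 transcripts), the other SOXE gene in the table, measured 1.15, 1.00 and 1.24 FPKM in GM and 0.798, 0.791 and 0.516 in DM. The groups were apart by a small margin. The means were 1.13 ± 0.120 and 0.701 ± 0.161 FPKM, 1.61 times higher in GM. Its log2 change of FPKM + 1 was -0.33 ± 0.097 and not called, and with a pseudocount of 0.1 it was -0.63 and called. The ratio of SOX8 to SOX9 was 5.14, 5.85 and 4.89 in GM and 0.586, 0.601 and 1.13 in DM, so SOX9 was the lower of the pair in every GM library and SOX8 in DM replicates 1 and 2. SOX10, the SOXE gene of glia and neural crest, was not analysed here.

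Of the other 5 SOX genes in the table, SOX13 and SOX15 passed the filter at a mean of 0.5 FPKM. SOX13, a SOXD gene, measured 1.08, 1.10 and 1.43 FPKM in GM and 0.971, 1.19 and 0.974 in DM, and SOX15 measured 0.658, 0.711 and 0.647 in GM and 0.676, 0.907 and 0.675 in DM. The groups overlapped for both genes. Their log2 changes were -0.11 ± 0.093 and 0.07 ± 0.086, so SOX13 was the nearest of the genes left out to SOX5, whose -0.24 ± 0.093 was among the smallest changes of the 7. SOX17, SOX18 and SOX30 were under the filter, with no library above 0.0319 FPKM.

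All 12 SOX genes together summed to 26.0, 27.2 and 33.7 FPKM in GM and 26.4, 24.9 and 26.2 in DM. The summed levels of the groups overlapped, while the make-up of the sum differed. The SOXC share was 57.4, 60.2 and 65.6% in GM and 79.0, 78.1 and 79.4% in DM. Its sum in FPKM overlapped between the groups, from 14.9 to 22.1 in GM and from 19.5 to 20.9 in DM. The SOXE share was 27.1, 25.2 and 21.6% in GM and 4.80, 5.08 and 4.19% in DM, and here the sum itself was apart, at 7.07 ± 0.222 and 1.21 ± 0.0962 FPKM. The share of SOX5 and SOX6 together overlapped between the groups at 7.72 ± 1.12% and 9.41 ± 0.899%. SOX13, also a SOXD gene, was left out of this share, and no share of all SOXD genes is given.

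By single gene, SOX11 made up 28.3, 27.9 and 32.2% of SOX mRNA in GM and 52.0, 49.7 and 55.5% in DM. SOX8 made up 22.7, 21.5 and 18.0% in GM and 1.77, 1.91 and 2.22% in DM. The groups were apart for both. SOX12 averaged 21.7% in GM and 13.0% in DM, SOX4 9.87% and 13.5%, SOX6 2.25% and 4.84%, and SOX9 3.92% and 2.72%. For SOX5, at 5.48% and 4.57%, the shares overlapped between the groups although the FPKM values did not.

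**Figure D2:**
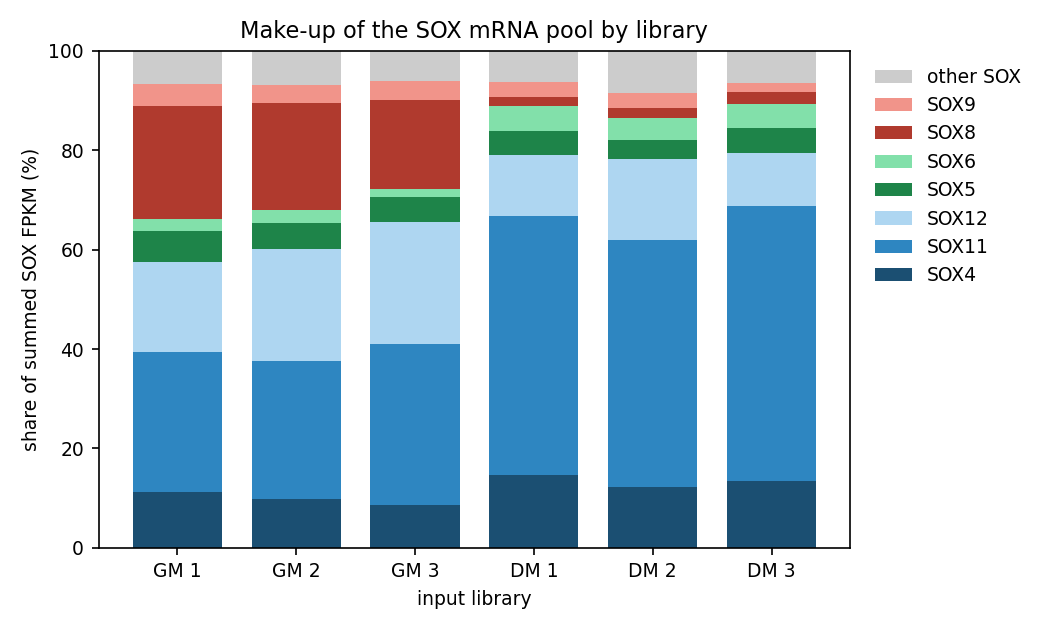
Share (%) of each SOX gene in the summed FPKM of the 12 SOX genes of the table, by input library. Shades of blue are SOXC, of green SOX5 and SOX6, and of red SOXE, with the remaining SOX genes, SOX13 among them, in grey. SOX11 fills 27.9 to 32.2% of a GM bar and 49.7 to 55.5% of a DM bar, and SOX8 shrinks from 18.0 to 22.7% to 1.77 to 2.22%.

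In GM the order of mean FPKM was SOX11, SOX12, SOX8, SOX4, SOX5, SOX9 and SOX6. The ranges of SOX11 and SOX12, and those of SOX12 and SOX8, overlapped, and the other neighbours were apart. In DM the order was SOX11, SOX4, SOX12, SOX6, SOX5, SOX9 and SOX8. There the ranges of SOX4 and SOX12, of SOX6 and SOX5, and of SOX9 and SOX8 overlapped. SOX11 stood higher than 59.3% of tested genes by its mean over the 6 inputs, SOX12 higher than 35.6%, SOX8 than 26.0% and SOX4 than 25.6%. SOX5, SOX6 and SOX9 stood higher than 11.8%, 7.1% and 6.6%, near the filter. GM replicate 3 was the highest GM library for 5 of the 7 genes, as it was for 35.0% of tested genes, and DM replicate 2 was the lowest DM library for 4 of them, as it was for 42.6%.

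The genes most like each SOX gene were ranked by Pearson r of log2(FPKM + 1) over the 6 input libraries, as a description. GM and DM did not overlap for any of the 7 genes, so the difference between the groups enters each r along with the spread within them. SOX8 was most like INCENP (0.9998), VGF (0.9997) and KPNA2 (0.9997), and 1546 tested genes had r above 0.95 with it. Genes most like SOX6 included SGK1 (0.9998) and PCF11 (0.9987), with 827 genes above 0.95. For SOX12 they were ZC3H4 (0.999), ZNF598 (0.998) and PREP (0.993), with 179 genes above 0.95. For SOX9 they were WDYHV1 (0.993), TP53I11 (0.991) and TMEM265 (0.991), with 108. SOX11 was most like GFOD1 (0.994), BRK1 (0.993) and CAV3 (0.992), with 94 genes above 0.95. SOX5 was most like MRPL32 (0.991), PRKCQ (0.989) and RF02105 (0.986), with 41, and SOX4 like SLX1A (0.994), RBM6 (0.989) and TMEM107 (0.989), with 25. The count above 0.95 was thus largest for SOX8 and smallest for SOX4, and the difference between the groups enters these counts too.

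Of 9 listed genes of slow fibres that SOX6 is known to repress, 7 were tested, 5 were called higher in DM and 0 lower, where 4.9% of all tested genes were called higher. The median log2 change of the 7 was 0.89, beside -0.05 for all tested genes. The tested genes that were not called were ATP2A2, the calcium pump of the sarcoplasmic reticulum, at a log2 change of 0.39, and TPM3, a tropomyosin, at 0.12 with groups that overlapped. MYL2, the slow and cardiac regulatory light chain, rose from 61.6 ± 0.542 to 229 ± 6.14 FPKM (log2 change 1.88, adjusted p = 2.0e-07 by limma with Benjamini-Hochberg adjustment, as for those that follow). TNNI1, slow troponin I, rose from 36.4 ± 1.79 to 104 ± 8.99 FPKM (log2 change 1.49, adjusted p = 1.8e-06). TNNT1, slow troponin T, rose from 23.7 ± 0.489 to 50.0 ± 6.65 FPKM (log2 change 1.04, adjusted p = 4.8e-05). TNNC1, troponin C of slow and cardiac muscle, rose from 224 ± 38.6 to 412 ± 6.92 FPKM (log2 change 0.89, adjusted p = 3.1e-04). The list was written with earlier results of these data known and is not independent evidence of a direction. Whether SOX6 had a part in these values was not tested.

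Genes that SOX9 drives in cartilage with SOX5 and SOX6 were for the most part hardly expressed. Of 14 listed, 12 were in the table and 1 passed the filter, COL11A1, a fibrillar collagen chain, named after its values were seen. It measured 232 ± 12.8 FPKM in GM and 298 ± 10.3 in DM, a log2 change of 0.36 that was under 1.5-fold and so not called (adjusted p = 0.0013 by limma with Benjamini-Hochberg adjustment). COL2A1, the main cartilage collagen, averaged 0.0308 FPKM in GM and 0.0203 in DM, and ACAN, the cartilage proteoglycan aggrecan, 0.103 and 0.192.

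Of the 4 TCF/LEF genes, the HMG-box factors of Wnt signalling, 0 were called by limma and 1 was at an unadjusted p under 0.05, as were 50.7% of all tested genes, with a median log2 change of -0.03. Of the SOX4 and SOX11 targets known from other tissues, 3 of 4 were tested. By limma 0 were called, none reaching 1.5-fold, and 3 were at an unadjusted p under 0.05 beside the same 50.7%. The median was -0.28. TEAD2 overlapped between the groups and had an adjusted p of 0.091 by limma with Benjamini-Hochberg adjustment. Their log2 changes were 0.37 for CALD1, -0.28 for TEAD2 and -0.40 for TUBB3, a mixed pattern beside a SOX11 that was higher in DM.

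**Figure D3:**
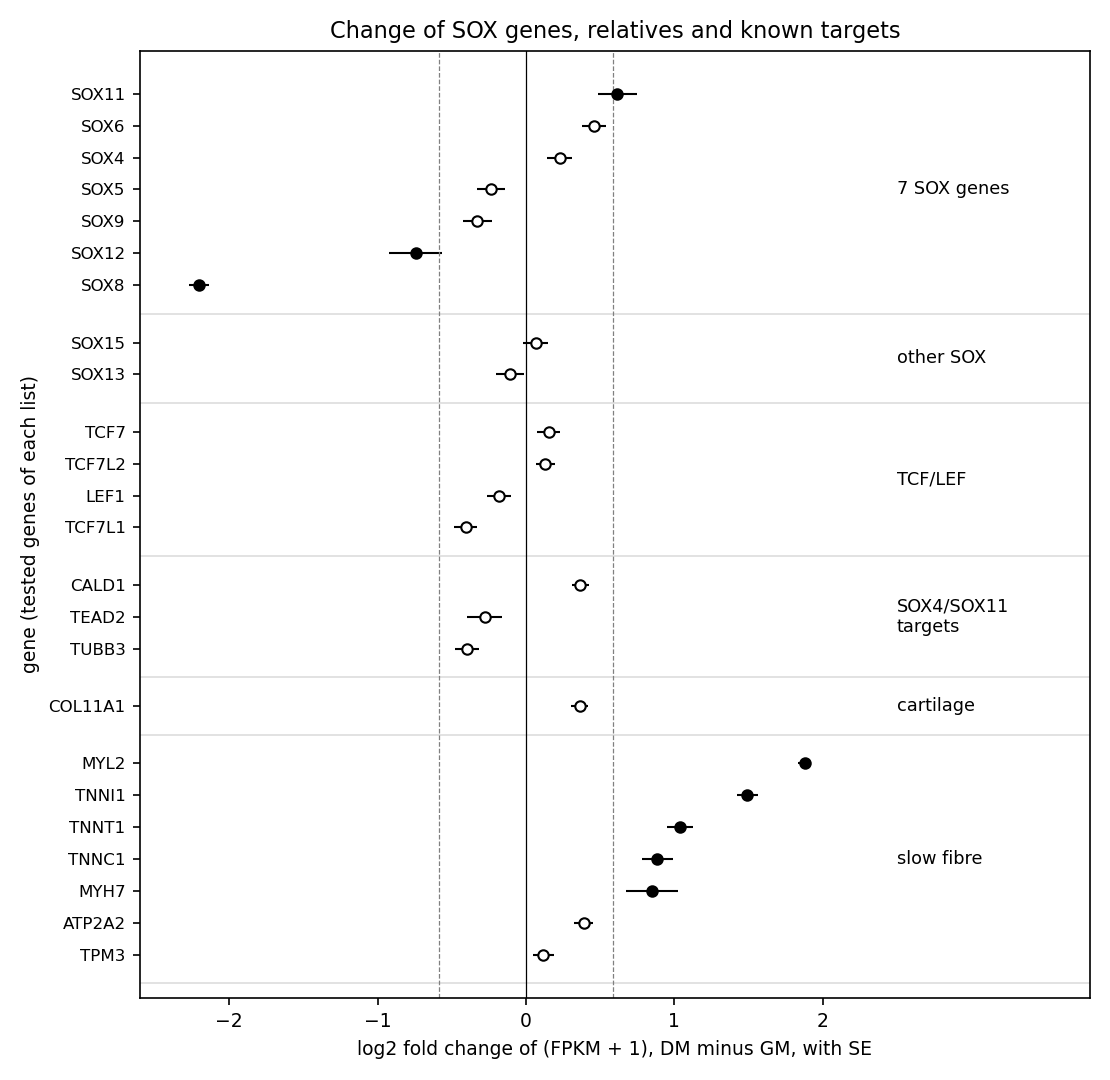
Log2 fold change of FPKM + 1, DM minus GM, with its standard error (3 libraries per group), for the tested genes of each list. Filled points were called, open points were not, and dashed lines mark 1.5-fold. The 5 called slow-fibre genes lie to the right of the upper 1.5-fold line, and SOX8 at -2.20 lies far to the left of the other SOX genes.

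Markers of other cell types were read beside these values, since several SOX genes are also used by other lineages. Schwann cells express SOX10 and S100B. Of 7 Schwann cell and glia markers, 5 were in the table and 2 were tested. ERBB3, a neuregulin receptor, was called higher in DM, from 2.26 ± 0.0381 to 5.86 ± 0.269 FPKM. Their summed level was 12.5 to 12.9 FPKM in GM and 14.8 to 16.1 in DM. Of 8 fibroblast markers, all were tested and 1, FAP, was called, higher in DM at 105 ± 9.78 against 37.5 ± 3.13 FPKM. Their sum ran from 16067 to 16217 FPKM in GM and from 16961 to 18070 in DM. Endothelial markers summed to 0.672 to 0.874 FPKM in GM and 0.449 to 0.827 in DM, immune cell markers to 1.16 to 1.65 and 0.944 to 1.98, and adipocyte markers to 1.21 to 1.36 and 1.94 to 2.66. Of these last 3 lists 2 genes were tested in all, CD68 and PLIN1, with 0 called by limma and 0 at an unadjusted p under 0.05. PAX7, the satellite cell factor, went from 1.08 ± 0.0972 to 0.0624 ± 0.0339 FPKM beside the lower SOX8, and was named after its values were seen. The part of any of these cells in the SOX levels was not tested.

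The m6A peaks came from 1 list per group, which the authors called after pooling its libraries. Fold enrichment is the ratio of IP to input signal in a peak, with 1 value per list and no replicate error, so differences between lists are given without a test. All 7 SOX genes had at least 1 peak in each list, as did 68.6% of tested genes. The median fold enrichment of their peaks was 3.74 in GM and 3.47 in DM, beside 3.27 and 3.38 for all peaks of the lists. By the deposited annotation, 4 of the GM peaks were in a 3′UTR, 3 in a 5′UTR and 8 in an exon, and in DM 4, 2 and 7. These classes name 1 feature of peaks that can span several.

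Over the whole annotated exon of SOX11, a single peak of 1356 nucleotides was called in each list (chr11:90953818-90955173). Its fold enrichment was 8.02 in GM and 5.77 in DM, a ratio of 0.719. Enrichment of SOX11 was thus lower in the group where its mRNA was higher. In SOX12 the GM peak also covered all 945 nucleotides, at 4.49. DM held 2 peaks there, one of 503 nucleotides at 3.16 (chr13:60693376-60693878) and one of 119 nucleotides at the 5′ end at 2.41 (chr13:60694173-60694291), which left 323 nucleotides covered in GM only. The SOX11 peaks and the GM peak of SOX12 had the same ends as the annotated exon. Whether signal extends past that exon cannot be read from the lists.

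SOX4 showed the reverse arrangement. GM had a peak of 1009 nucleotides in the 3′ part at 9.26 (chr23:36520699-36521707), higher than 90.9% of GM peaks, and one of 772 nucleotides at the 5′ end at 2.66 (chr23:36521767-36522538). In DM a single peak at 3.09 ran over all 1870 nucleotides. Weighted by length, mean enrichment over the SOX4 peaks was 6.40 in GM and 3.09 in DM. An enrichment over a long peak averages over its length, so the 9.26 and the 3.09 do not describe the same stretch of RNA.

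**Figure D4:**
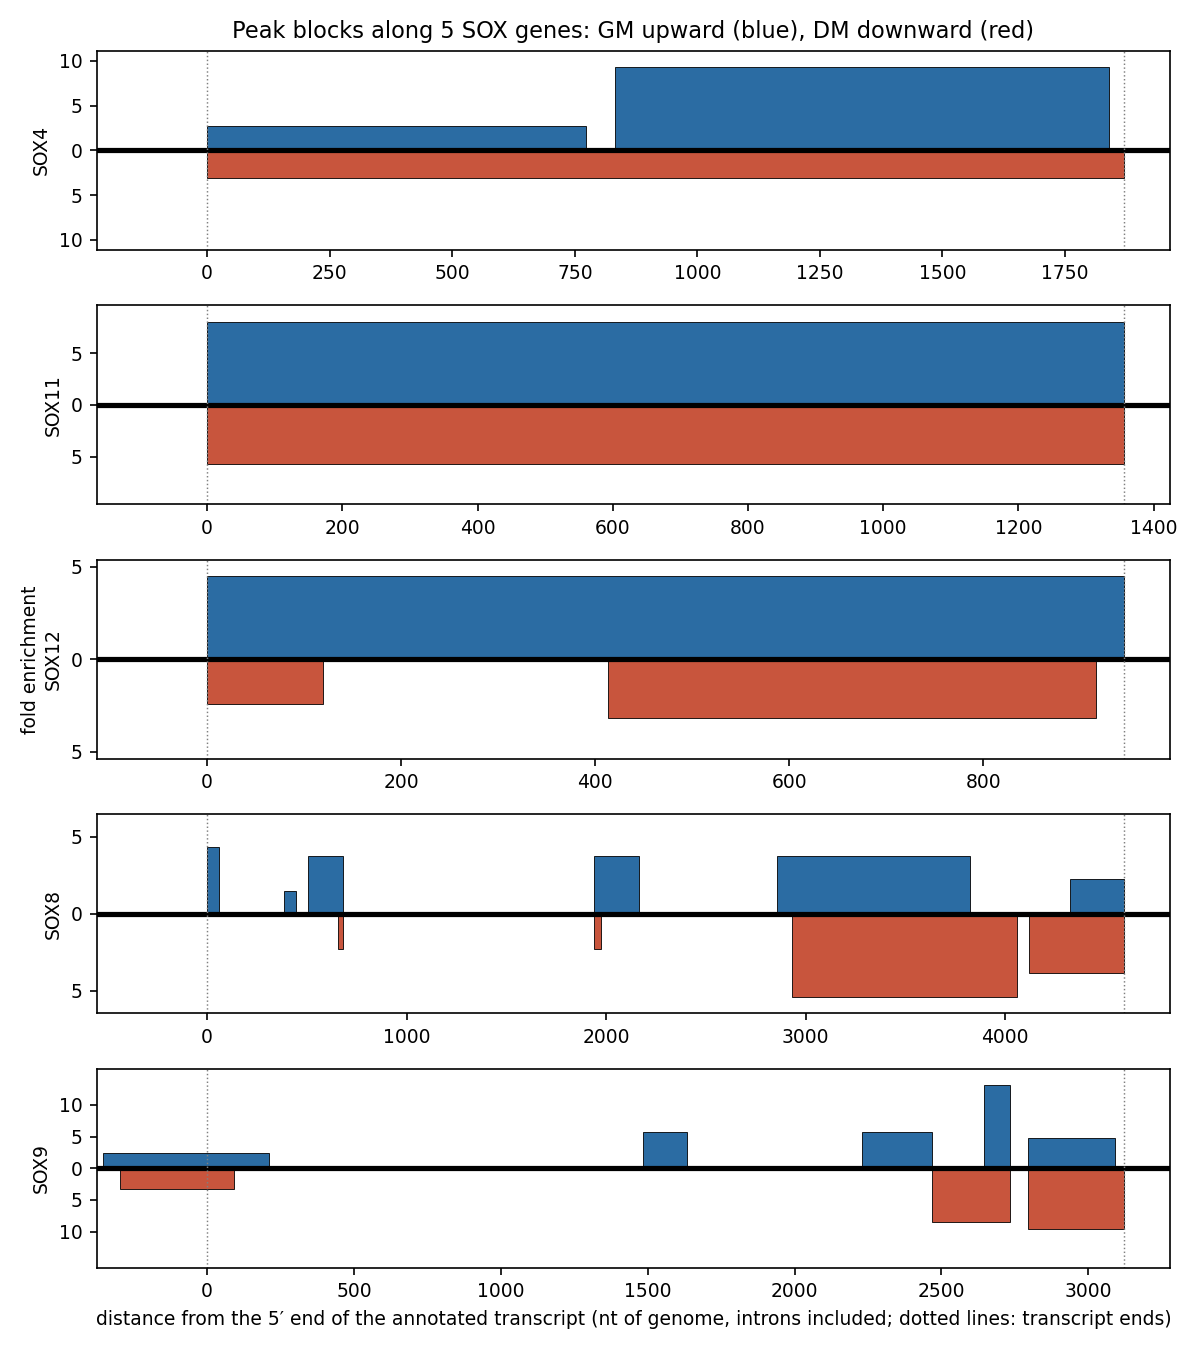
Peaks along 5 SOX genes: fold enrichment (linear) against the distance in nucleotides from the 5′ end of the annotated transcript, introns included, with GM upward in blue and DM downward in red. Dotted lines are the ends of 1 annotated transcript. SOX11 carries 1 peak over its whole annotated exon in each list, and SOX4 and SOX12 carry 1 peak in one list against 2 in the other.

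For the SOXD genes SOX5 and SOX6, peaks lay at the 3′ end of very long loci. SOX6 had a GM peak of 300 nucleotides at 2.51 (chr15:36541822-36542121, 3′UTR), and in DM a peak of 749 nucleotides at 3.47 that contained it (chr15:36531773-36542301). A second DM peak of 181 nucleotides lay in 3 upstream exon blocks at 1.69. SOX5 had a GM peak of 181 nucleotides at 2.70 (chr5:86626258-86626438), inside a DM peak of 660 nucleotides at 3.59 (chr5:86624011-86626678). Another GM peak, of 121 nucleotides at 1.63 (chr5:86576043-86576163), overlapped no DM peak. Covered length thus went from 300 to 930 nucleotides for SOX6 and from 302 to 660 for SOX5. The peaks at 1.69 and 1.63, counted in these lengths, had log10 false discovery rates of -1.42 and -1.48.

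SOX8, low in DM, still had 3 peaks there. The longest GM peak, of 1369 nucleotides in 3 exon blocks, had an enrichment of 3.74 (chr25:789031-792348). A DM peak of 1131 nucleotides that overlapped its last block had 5.40 (chr25:791456-792586). At the 3′ end, a GM peak at 2.28 (chr25:792853-793121) lay within a DM peak at 3.87 (chr25:792645-793121), a ratio of 1.70. A small DM peak of 61 nucleotides at 2.29 covered an exon junction within the large GM peak. GM peaks of 60 nucleotides at 4.36 (chr25:788526-788585, 5′UTR) and of 61 nucleotides at 1.51 (chr25:788912-788972) overlapped none in DM, and the caller gave them unadjusted p-values of 0.042 and 0.026.

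SOX9 held the highest enrichment of the 7 genes in both lists, at 13.1 in GM and 9.58 in DM. Their log10 false discovery rates were -2.83 and -8.85. Without the GM peak at 13.1, the SOX4 peak at 9.26, with -16.9, would be the highest in GM. The GM peak at 13.1 had 90 nucleotides (chr19:58919965-58920054) and was higher than 95.6% of GM peaks. It lay within a DM peak of 268 nucleotides at 8.52 (chr19:58919965-58920232), with a log10 false discovery rate of -2.06. Next to it at the 3′ end, a GM peak at 4.72 (chr19:58919609-58919906) lay within a DM peak at 9.58 (chr19:58919579-58919906), a ratio of 2.03. At the 5′ end, a peak of 565 nucleotides at 2.46 in GM (chr19:58922491-58923055) overlapped one of 387 nucleotides at 3.25 in DM (chr19:58922610-58922996). The remaining GM peak, of 387 nucleotides in 2 blocks at 5.66 (chr19:58920232-58921216), shared 1 nucleotide with a DM peak. Weighted by length, mean enrichment was 4.60 in GM and 6.80 in DM over 1340 and 983 covered nucleotides. Each mean takes in only the peaks of its own list, and 564 nucleotides were covered in GM only and 207 in DM only. The 2 means thus do not describe the same stretch of RNA. The paper lists SOX9 among its largest falls in m6A, for an exon peak that overlaps the span of the GM peak at 5.66. It also counts SOX9 mRNA as lower in DM.

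A pair was compared where exactly 1 GM peak overlapped exactly 1 DM peak by at least 1 exon nucleotide on the same strand. The 7 SOX genes gave 6 such pairs, 2 of which differed by more than 1.5-fold, both higher in DM, where 25.0% of all 10239 pairs did and 14.2% were higher in DM. The other direction held for 0 of the 6 pairs and 10.8% of all pairs. These were the 3′ end pairs of SOX9 and SOX8. The ratio of DM to GM was above 1 in 5 pairs and below 1 in SOX11. The median log2 ratio of the 6 was 0.44, beside 0.07 for all pairs. Pairs of 1 gene share its transcripts and are not separate samples. Most of the 6 pairs moved against the mRNA. SOX5 (1.33), SOX8 (1.70) and SOX9 (2.03 and 1.32) were lower in mRNA in DM and had ratios above 1. SOX11, higher in mRNA, had a ratio of 0.719. SOX6, also higher, had 1.38 and moved with its mRNA. Overlaps of several peaks went both ways. Those moving with mRNA were 0.704 and 0.537 in SOX12, 0.612 in SOX8, 0.650 in SOX9 and 1.16 in SOX4. Those moving against it were 0.334 in SOX4, 1.44 in SOX8 and 1.51 in SOX9, the last sharing 1 nucleotide. A relation of these ratios to mRNA was not tested.

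**Figure D5:**
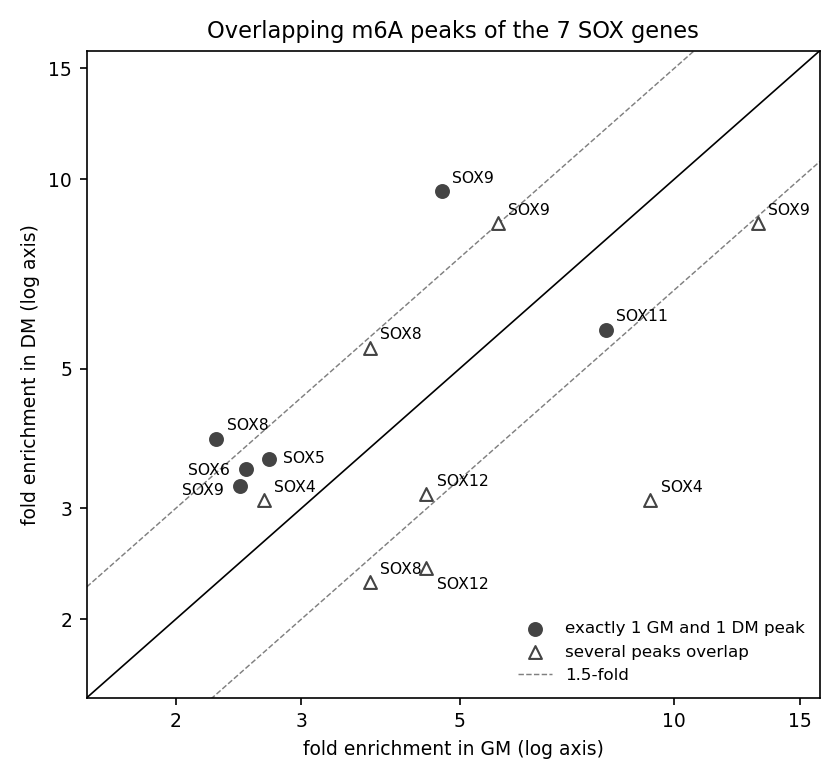
Fold enrichment in DM against GM (both axes log) for overlapping peaks of the 7 SOX genes. Filled circles are pairs of exactly 1 GM and 1 DM peak, open triangles are overlaps of several peaks, the solid line is equality and the dashed lines 1.5-fold. The SOX9 pair of 4.72 and 9.58 and the SOX8 pair of 2.28 and 3.87 lie above the upper dashed line, and the SOX11 pair lies below equality.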

How the data were processed

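Poly(A) RNA in fragments of about 100 nucleotides was sequenced from input and IP libraries prepared with strand information. The authors mapped reads with HISAT2 to ARS-UCD1.2 and made the deposited FPKM of the 6 input libraries with StringTie. The study names Trimmomatic as the trimmer and the submitters' processing notes name cutadapt and fastp. Versions are not given in the sources used here. The authors called peaks with exomePeak on pooled libraries of each group and annotated them with ChIPseeker. The deposited fold enrichment is a linear ratio, and the deposited p-values carry no adjustment. The deposited lists also hold the authors' log10 of the p-value and of the false discovery rate. The score column of the deposited lists is the authors' p-value again. Reads were not analysed here.

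limma 3.58.1 in R 4.3.3 was fitted to log2(FPKM + 1), with a mean-variance trend, for genes whose mean over the 6 inputs reached 0.5 FPKM. The study used edgeR on counts, and FPKM are not counts, so its thresholds (unadjusted p under 0.05, fold over 1.5) were applied to limma's test. Benjamini-Hochberg adjustment covered the 12302 tested genes. These p-values measure the spread between cultures, which per the study's methods came from 1 animal. Python 3.11.15 (pandas 2.3.3, numpy 2.4.6, matplotlib 3.10.9) served for peaks and figures. The pipeline was tested on simulated data.

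The 7 genes and all lists (other SOX genes, TCF/LEF genes, cartilage genes, slow-fibre genes, SOX4 and SOX11 targets, and markers of myogenic, fibroblast, Schwann, endothelial, immune and adipocyte cells) were chosen with earlier results of these data known. Named genes were the 7, other SOX genes past the filter, up to 4 called genes of each list by size of change, and the 3 genes most like each of the 7, of which 1 is not reported here. Genes outside this rule (ATP2A2, TPM3, COL11A1, COL2A1, ACAN, CALD1, TEAD2, TUBB3, CD68, PLIN1 and PAX7) were chosen after their values were seen. Alternatives covered pseudocount, filter, scaling, variance trend, replicate block, thresholds, each library left out and stricter peak sets.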

Additional observations from a re-analysis of the deposited data

How the results depend on the processing

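All 7 SOX genes kept the direction of their difference under every alternative run for them. The number called was 3 and became 5 with a pseudocount of 0.1, which added SOX6 and SOX9, and 1, SOX8, with a limit of 2-fold. It ran from 2 to 3 with single libraries left out, with SOX11 or SOX12 lost. Over all genes 507 passed the limit of 2-fold, 232 of them higher in DM. On TPM, which rescales each library to 1 sum, 1762 genes were called, 55.1% of them higher in DM beside 41.3% of 1461, and SOX6 was called at 0.75. TPM moved the median log2 change of all genes by 0.11. Relative to that median, SOX8 was at -2.15 and on TPM at -2.76, and SOX6 at 0.51 and 0.69. Size factors gave 1397 calls, 48.6% higher.

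The replicate numbers did not pair the samples, with correlations of deviations between same-numbered GM and DM libraries of -0.08, -0.12 and -0.21. With the replicate number as a block, 3 SOX genes and 1473 genes in all were called.

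In the order of mean levels SOX12 and SOX8 changed places without GM replicate 3, and SOX4 and SOX12 without DM replicate 1 or DM replicate 3. Of the peak pairs 2 differed by more than 1.5-fold, and 1, in SOX9, by more than 2-fold. Requiring 50% of each peak to overlap gave 7 pairs, of which 3 differed, the added one being lower in DM in SOX4. A false discovery rate under 0.001 left 11 GM and 10 DM peaks, with all 7 genes in both lists. The SOX9 peaks at 13.1 in GM and 8.52 in DM were not among them. Low FPKM of SOX6, SOX9 and, in DM, SOX8 limits the precision of their folds, and pooled peaks carry no error.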
